A study of Mus musculus with 20 samples.

Results

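The promoters of 8 genes that write, read or remove marks on lysine 27 of histone H3 (H3K27) were followed through loss of Ash2l: Ezh1, Ezh2, Eed, Suz12, Jarid2, Kdm6b, Crebbp and Ep300. Members were the H3K4me3 regions that the authors' promoter lists name for these genes, and the H3K4me1 regions that share at least 1 bp with them. This gave 11 of 15584 promoter H3K4me3 regions for 8 of 13020 genes, and 20 of 117165 H3K4me1 regions. The cells were immortalized mouse embryo fibroblasts (iMEF) of the genotype Ash2l fl/fl with Cre-ER, grown from embryos of day 13 and immortalized with an shRNA against p19Arf, which all libraries used here carry. The KO lines KO1 (iMEF1) and KO2 (iMEF2) were grown either with the vehicle ethanol (-HOT) or with 5 nM 4-hydroxytamoxifen (+HOT) for 5 days, which lets Cre-ER recombine exon 4 of Ash2l. Each mark had 1 ChIP-seq library per line and condition, so that each line is 1 replicate. The p-values rest on a spread between lines pooled over all tested regions, fully for H3K4me3 and in part for H3K4me1.

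Ash2l belongs to the core of the KMT2 complexes, enzymes that methylate lysine 4 of histone H3. H3K4me3 lies at the start sites of active genes, while H3K4me1 typically flanks them and marks enhancers. Polycomb repressive complex PRC2 carries out the methylation of H3K27, a mark of repressed genes, through a core of Ezh1 or Ezh2 with Eed and Suz12. Kdm6b removes this methylation, and the acetyltransferases Crebbp (CBP) and Ep300 (p300) place acetyl groups on the same lysine, a mark of active promoters and enhancers. The question addressed here is how much H3K4me3 and H3K4me1 the promoters of these opposing enzymes carried with and without Ash2l.

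Libraries held 6116382 and 17708078 H3K4me3 reads in regions without HOT and 2441698 and 6978481 with HOT (KO1 and KO2), whereas H3K4me1 reads numbered 6157647 to 9048056 per library. The Ash2l promoter carried 469 scaled H3K4me3 reads without and 281 with HOT in KO1, and 1839 without and 976 with HOT in KO2, but no region of either mark covers exon 4, so these values do not check its deletion. H3K4me3 promoter regions were found for 12 of 12 fibroblast, 3 of 4 epithelial, 1 of 3 endothelial, 1 of 3 neural and 0 of 3 blood marker genes. Summed over markers, fibroblast genes carried 9467 and 35636 scaled reads without HOT in KO1 and KO2, against 161 and 598 for epithelial genes. Values are reads per region that the authors divided by 1 factor per library to match the lowest coverage within a line. The scaling has no external standard. The median log2 ratio of +HOT over -HOT over all 16129 tested H3K4me3 regions was -1.06 in KO1 and -1.63 in KO2, and changes relative to this shift are given as well.

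H3K4me3 was lower with HOT than without at all 8 genes in both lines. Of the 8 main regions (the region of a gene with the most reads without HOT), 6 fell by limma at an adjusted p under 0.05, none rose, and those of Eed and Ep300 did not pass. This share is to be read against the background, since 83.9% of the main regions of 12214 genes and 86.5% of all tested H3K4me3 regions fell. The median over the 8 main regions was a mean log2 ratio of -0.96, beside -1.19 for the main regions of all genes. In the authors' lists of H3K4me3 level, 8 of these regions were high in KO1 and 7 in KO2. The share of high regions among the main regions of all genes was not computed. The paper reports the smallest fold loss of H3K4me3 at high promoters. A background of high promoters alone was not computed, so the part of level in this difference was not tested. Main regions kept between 44.8% (Ezh2) and 71.2% (Ep300) of their reads in KO1 and between 32.6% (Kdm6b) and 61.4% (Ep300) in KO2. All 8 kept a larger share in KO1 than in KO2. The median over the main regions of all genes was also larger in KO1 (50.9%) than in KO2 (38.2%). In bulk chromatin, less mark in every cell and fewer cells with the mark cannot be told apart. With each line scaled to a median log2 ratio of 0, the direction flipped at 7 of the 8 main regions, all but that of Ezh2. Only Ep300 passed, as higher. This median divides all tested regions about evenly by construction, and 1519 of them passed as higher and 3744 as lower. Main regions of all genes had a higher median (-1.19) than all tested regions (-1.36), and most of them lay above this shift. Their exact share above it was not computed. Among the main regions of all genes, the changes of Ezh2 and Kdm6b lay below the middle, at percentiles 39.8 and 41.3. Ezh1 lay at 54.8, and the others from 62.6 (Jarid2) to 97.0 (Ep300).

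**Figure D1:**
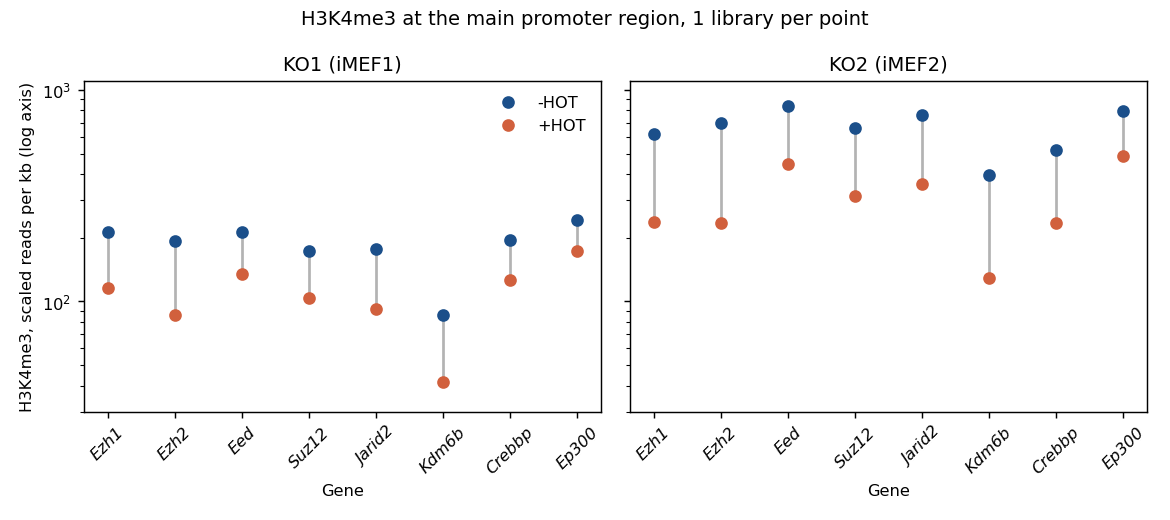
H3K4me3 of the main promoter region of each gene in scaled reads per kb (log axis), in KO1 (left) and KO2 (right), with 1 point per library, blue for -HOT and orange for +HOT. All 8 genes were lower with HOT in both lines as deposited. Once the median change of all tested regions was set to 0, 7 of them, all but Ezh2, were above it, as were most main regions of all genes.

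The methyltransferase genes had regions of different width and similar levels per kb, with 212 (Ezh1) and 194 (Ezh2) scaled reads per kb without HOT in KO1, and 618 and 698 in KO2. Ezh1, the methyltransferase more common in resting cells, had the narrowest main region of the 8 (chr11:101086760-101088147, 1388 bp, minus strand, over intron 1 by the authors' annotation). It carried 294 scaled reads without and 161 with HOT in KO1, and 857 and 330 in KO2. As at every main region, the conditions separated within each line and overlapped across lines, with more reads in KO2 with HOT than in KO1 without. The mean log2 ratio was -1.12 (SE 0.391, n = 2 lines, adjusted p = 0.00667 from limma). The authors' lists give this region a high level in KO1 and a medium level in KO2, the only main region of the 8 not high in both.

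Ezh2, the methyltransferase of dividing cells, had a region of 3066 bp (chr6:47543221-47546286, minus strand, over intron 1). It carried 593 scaled reads without and 266 with HOT in KO1, and 2139.6 and 716 in KO2. This was the largest fall among the 8 main regions, with a mean log2 ratio of -1.37 (SE 0.391, n = 2 lines, adjusted p = 0.000966 from limma). Relative to the median shift its log2 ratio was -0.02. Ezh1 was above Ezh2 by 0.25 on the log2 scale, with a 95% interval from -0.84 to 1.33, so that the change at the paralogs was not distinguishable by this interval. The sequences directly upstream of both start sites, which lie inside the regions that lost H3K4me3, are shown because they differ in base composition and motifs (RefSeq starts, placed on NCBIM37/mm9, 250 bases, 5′ to 3′ on the minus strand, capitals mark CCAAT or its reverse complement ATTGG).
Ezh1, chr11:101087778-101088027: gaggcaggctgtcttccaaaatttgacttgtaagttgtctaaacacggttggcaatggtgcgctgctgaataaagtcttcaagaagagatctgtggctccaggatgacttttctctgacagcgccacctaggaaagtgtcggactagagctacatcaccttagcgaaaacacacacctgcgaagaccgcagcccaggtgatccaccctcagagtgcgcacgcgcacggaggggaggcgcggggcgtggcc
Ezh2, chr6:47545030-47545279: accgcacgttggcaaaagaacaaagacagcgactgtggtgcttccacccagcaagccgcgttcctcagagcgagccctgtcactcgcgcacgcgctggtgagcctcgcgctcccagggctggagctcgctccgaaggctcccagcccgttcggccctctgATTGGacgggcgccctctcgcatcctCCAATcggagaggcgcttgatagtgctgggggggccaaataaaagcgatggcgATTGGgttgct
The Ezh2 sequence holds 23 CpG and 3 CCAAT boxes, and that of Ezh1 14 CpG and none of the 4 motifs searched.

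The core subunits Eed, which binds methylated H3K27, and Suz12, which the methyltransferase needs for its activity, had ratios above the median of all regions, a difference that passed for neither (Eed 0.55, adjusted p = 0.0761). Eed carried 647 scaled reads without and 406 with HOT in KO1, and 2543 and 1355 in KO2, at its main region (chr7:97127536-97130562, minus strand, over exon 1 and its 5′ UTR). It kept 62.8% and 53.3%. Its mean log2 ratio of -0.79 (SE 0.391, n = 2 lines) had an adjusted p of 0.0505 from limma and so did not pass, although it was below -0.58 in both lines. The call depended on the fit: adjusted p was 0.0181 with more than 50 reads required, 0.00265 with a trend in limma and 0.00261 with edgeR. A second Eed region of 206 bp (chr7:97127178-97127383, 152 bp downstream of the main one) held 5 reads without and 1 with HOT in KO1 and 31 and 10 in KO2, and was too low to test.

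Suz12 carried 568 scaled reads without and 338 with HOT in KO1, and 2147 and 1025 in KO2, over 3267 bp (chr11:79805686-79808952, plus strand, over intron 1). The mean log2 ratio was -0.91 (SE 0.391, n = 2 lines, adjusted p = 0.0264 from limma), and 0.44 above the median shift (adjusted p = 0.163). Suz12 and Eed differed by 0.12 on the log2 scale (95% interval -0.97 to 1.20). The sequence upstream of the Suz12 start is shown as the member promoter with the most kinds of motif, with 3 GC boxes (GGGCGG), 1 CCAAT box and 1 E2F site (TTTCCCGC) in capitals, on the plus strand.
Suz12, chr11:79806358-79806607: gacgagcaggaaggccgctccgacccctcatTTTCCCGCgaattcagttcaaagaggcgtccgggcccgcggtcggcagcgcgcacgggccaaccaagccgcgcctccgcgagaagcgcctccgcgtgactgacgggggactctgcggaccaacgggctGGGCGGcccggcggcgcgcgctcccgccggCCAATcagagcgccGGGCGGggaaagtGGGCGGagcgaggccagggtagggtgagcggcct

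Jarid2, a cofactor that helps to bring PRC2 to its targets, had 2 regions that changed by different amounts. The main region (chr13:44826011-44830027, 4017 bp, plus strand) carried 713 scaled reads without and 371 with HOT in KO1, and 3065 and 1434 in KO2. The second region lies 148 bp upstream of it (chr13:44824849-44825862, 1014 bp). In KO1 it carried 177 scaled reads without and 45 with HOT, in KO2 423 and 54. The main region kept 52.0% and 46.8% of its reads, and the second region 25.4% and 12.8%. The mean log2 ratio was -1.02 for the main region (SE 0.391, n = 2 lines, adjusted p = 0.0133 from limma) and -2.45 for the second (adjusted p = 7.04e-09 from limma). The second region thus lay below the main one (second minus main -1.43 on the log2 scale, 95% interval -2.52 to -0.35), in both lines. Against the median of all regions it was still lower (-1.11, adjusted p = 0.000231). The interval included 0 with no read minimum, with a trend in limma and without the block. The second region had fewer reads without HOT than the main one, and the part of this in the difference was not tested.

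Of the 2 RefSeq start sites of Jarid2, the upstream one lies in the main region 281 bp downstream of the end of the second region. In GENCODE, the starts of 2 Jarid2 transcripts lie inside the second region and those of 11 inside the main one. The sequence before it is shown because it starts in the gap between both regions and runs into the main one (plus strand, capitals mark a GC box and a CCAAT box).
Jarid2, chr13:44825893-44826142: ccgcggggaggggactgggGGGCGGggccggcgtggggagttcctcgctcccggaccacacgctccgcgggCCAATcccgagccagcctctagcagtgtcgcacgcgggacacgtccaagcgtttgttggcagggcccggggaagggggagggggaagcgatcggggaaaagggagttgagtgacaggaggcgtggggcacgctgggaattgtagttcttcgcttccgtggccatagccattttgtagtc

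Kdm6b, a demethylase of H3K27, had the widest region of the 8 (chr11:69227626-69232407, 4782 bp, minus strand) and the lowest level per kb. It carried 414 scaled reads without and 199 with HOT in KO1, and 1889 and 616 in KO2. Per kb this was 86.6 and 395 scaled reads without HOT, at percentiles 17.5 and 19.3 of the main regions of all genes. The mean log2 ratio of -1.33 (SE 0.391, n = 2 lines, adjusted p = 0.00127 from limma) differed from the median shift by 0.01. The region was annotated from a RefSeq start inside it, while the GENCODE start of the gene lies 449 bp outside its downstream edge.

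Of the acetyltransferase genes, Ep300 kept the most H3K4me3 of the 8 in both lines, and Crebbp was next to it in KO1 but below Eed, Suz12 and Jarid2 in KO2. Crebbp carried 638 scaled reads without and 411 with HOT in KO1, and 1697 and 767 in KO2 (chr16:4211527-4214790, minus strand, over exon 1). It kept 64.4% and 45.2%, with a mean log2 ratio of -0.89 (SE 0.391, n = 2 lines, adjusted p = 0.0291 from limma). The promoter of Crebbp is shown because it had the highest CpG content of the member promoters, 44 CpG in 250 bases at 84% GC, above 99.5% of all promoters (minus strand, capitals mark 2 overlapping GC boxes).
Crebbp, chr16:4213405-4213654: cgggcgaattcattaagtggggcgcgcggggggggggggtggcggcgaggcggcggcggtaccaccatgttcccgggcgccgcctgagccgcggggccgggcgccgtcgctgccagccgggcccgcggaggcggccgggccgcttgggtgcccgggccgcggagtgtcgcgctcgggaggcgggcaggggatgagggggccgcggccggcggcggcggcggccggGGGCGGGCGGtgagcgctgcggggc

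Ep300 had the smallest change of the 8. Its main region (chr15:81415750-81419125, 3376 bp, plus strand, which also holds the GENCODE start of AC160528.1) carried 818 scaled reads without and 583 with HOT in KO1, and 2679 and 1646 in KO2. It kept 71.2% and 61.4%, with a mean log2 ratio of -0.60 (SE 0.391, n = 2 lines, adjusted p = 0.132 from limma), which did not pass. Its change was less negative than that of 97.0% of the main regions of all genes, and set against the median region it was higher by 0.75 (adjusted p = 0.0162). With a trend in limma and with edgeR, the fall passed (adjusted p = 0.0287 and 0.0237). The main region did not reach the study's threshold of a log2 ratio beyond 0.58 in both lines.

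A second Ep300 region, 189 bp upstream of the main one (chr15:81414876-81415560, 685 bp, intergenic), fell. It carried 92.3 scaled reads without and 32 with HOT in KO1, and 331 and 88 in KO2. The mean log2 ratio of -1.70 (SE 0.391, n = 2 lines, adjusted p = 4.10e-05 from limma) lay below that of the main region (second minus main -1.10, 95% interval -2.19 to -0.02). This interval included 0 with a pseudocount of 5 (difference -1.03), with no read minimum, with a trend and without the block. As at Jarid2, the region further upstream had fewer reads and kept a smaller share in both lines. Unlike that of Jarid2, it holds 0 GENCODE starts of its gene.

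**Figure D2:**
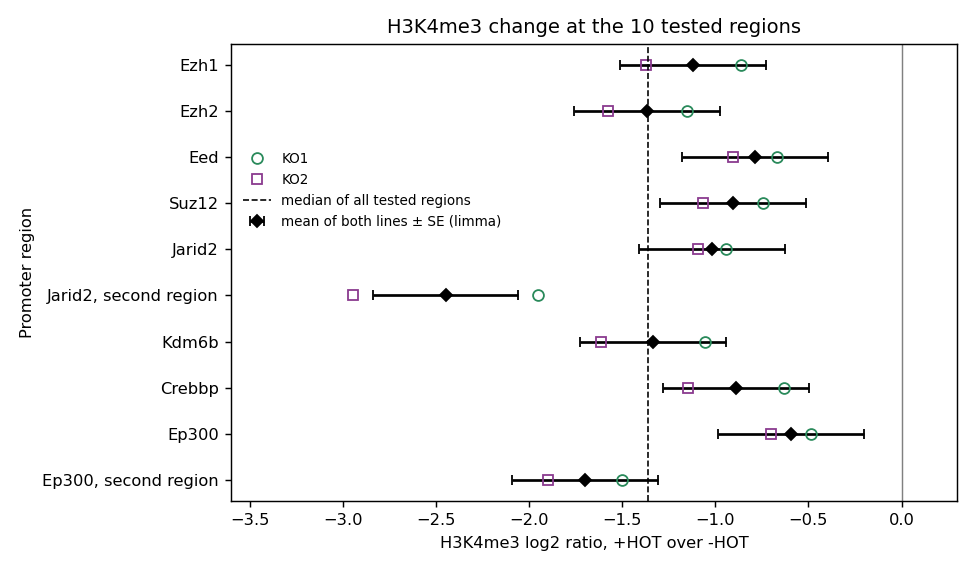
H3K4me3 log2 ratio of +HOT over -HOT (x axis) at the 10 tested regions (y axis). Open circles are KO1, open squares KO2, diamonds the mean ± SE of limma (n = 2 lines), and the dashed line the median of all tested regions. The second regions of Jarid2 (-2.45) and Ep300 (-1.70) lay left of the dashed line, and all main regions but that of Ezh2 right of it, so that their direction flips when this median is set to 0.

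Taking all regions, 8 of the 10 tested H3K4me3 regions fell and 0 rose, also 0 at an unadjusted p under 0.05 and by edgeR. By the study's ratio and read minimum, 9 of the 11 regions were lost in both lines, against 76.3% of all promoter regions. The 2 exceptions were the main region of Ep300 and the small region of Eed. The latter had log2 ratios of -1.25 and -1.53 but too few reads in KO1. A log2 ratio beyond 1 left 4. Without the line as a block, none of the 10 regions passed. Of the 28 pairs of main regions, 0 had an interval of the difference that left out 0, the largest difference being 0.77 between Ezh2 and Ep300 (95% interval of Ezh2 minus Ep300 -1.86 to 0.31). By these intervals, the order by the mean of both lines, from Ep300 to Ezh2, separates no neighbours, although 23 of the 28 differences had the same direction in both lines. The intervals hold the shift between lines that regions share, and so may be too wide. Without HOT, the levels per kb ran from 86.6 (Kdm6b) to 242 (Ep300) in KO1 and from 395 (Kdm6b) to 840.0 (Eed) in KO2. Kdm6b was lowest and Eed and Ep300 highest or near highest in both lines. The main regions had a median width of 3265.5 bp, beside 1993 bp for all genes, and 7 of 8 were wider than that.

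Companion genes of the same pathways fell no more often than genes in general. Of 19 genes in 4 lists, 18 had a promoter H3K4me3 region, of which 13 (72.2%) fell, against 83.9% of all genes, 0 rose and 5 did not pass (Rbbp4, Aebp2, Kdm6a, Hdac2 and Cited2), with a median mean log2 ratio of -0.88. Only Uty had no region. Among the accessory subunits of PRC2, 6 of 8 fell. Phf19, a Polycomb-like protein that binds methylated H3K36, was the lowest at -2.78 (adjusted p = 1.28e-10 from limma). It carried 189 scaled reads without and 33 with HOT in KO1, and 649.5 and 76 in KO2. Aebp2 was the highest at -0.47 (adjusted p = 0.229).

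Kdm6a, another H3K27 demethylase, had a mean log2 ratio of -0.74 (adjusted p = 0.0656 from limma) and 968 scaled reads without and 641 with HOT in KO1, and 3138 and 1702 in KO2. Of the deacetylases that can remove H3K27 acetylation, Hdac1 (-0.86) and Hdac3 (-1.29) fell, and Hdac2 had a value of -0.60 (adjusted p = 0.127). Of 6 partners of CBP and p300, 5 fell, from Cited4 at -2.18 to Cited2, which did not pass, at -0.69. Most main regions of all genes lay above the median shift, which divides all tested regions about evenly. Relative to this shift, the direction flipped for 14 of the 18 companion genes. Among them were Aebp2 (0.87), Cited2 (0.65), Hdac1 (0.48), Hdac2 (0.74), Hdac3 (0.05) and Kdm6a (0.61). The other 4, with Phf19 and Cited4 among them, stayed below it, and 3 of these still fell. In the authors' lists, these 4 had a medium level in both lines, and the 14 above the shift a high level in KO1. The part of level was not tested.

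H3K4me1 moved the other way: 12 of the 16 tested H3K4me1 regions rose, at least 1 at each of the 8 genes. None fell by limma or edgeR, and 1 was lower at an unadjusted p under 0.05. The background over all 78691 tested H3K4me1 regions was 14.8% that rose and 2.57% that fell. Among the 14772 that share at least 1 bp with a promoter H3K4me3 region it was 66.1% and 2.94%. The median of the tested regions was a mean log2 ratio of 1.37, beside 1.0097 at promoter H3K4me3 regions and 0.18 over all. The paper reports the largest rise of H3K4me1 at promoters with high H3K4me3, the level of most of these genes. The part of level in these comparisons was not tested. By the study's ratio, 11 of the 20 regions were gained in both lines and 0 lost, against 53.3% and 1.98% of those at promoter H3K4me3 regions. With the median log2 ratio set to 0 in each line, 10 still rose. The other 4 regions had too few reads to test.

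Among the tested regions, the largest log2 ratio of H3K4me1 was at Jarid2, and the next ones, at Kdm6b and Eed, were close to each other. The region inside the main Jarid2 region (197 to 2165 bp downstream of the start) went from 37 to 169 scaled reads in KO1, and in KO2 from 22 to 213, with a mean log2 ratio of 2.69 (SE 0.271, adjusted p = 3.59e-06 from limma). Upstream of Kdm6b, from -2619 to -248 bp relative to the start, it went from 57 to 244 and from 60 to 288 (2.16, SE 0.238, adjusted p = 7.41e-06). Its region from 45 to 2349 bp downstream rose less, from 62 to 124 and from 92 to 162 (0.90, adjusted p = 0.0133 from limma). It no longer passed with the median set to 0 (0.71, adjusted p = 0.0623), with no read minimum (0.134) or without the block (0.206).

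At the PRC2 core genes the gains lay on both sides of the start. The Eed region spanning the start went from 29 to 95 scaled reads in KO1, and in KO2 from 25 to 161 (2.16, adjusted p = 2.06e-05 from limma), and the next one downstream from 22 to 81 and from 24 to 123 (2.07, adjusted p = 1.39e-05). At Suz12, the upstream region went from 10 to 27 and from 16 to 46.4 (1.41, adjusted p = 0.000374), and the downstream one from 29 to 100 and from 24 to 132 (2.08, adjusted p = 1.70e-05). Every library with HOT was above every library without HOT at these 4 regions.

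At Ezh2 the upstream region went from 12 to 68 scaled reads in KO1, and in KO2 from 20 to 70.9 (2.09, adjusted p = 1.55e-05 from limma), and the wide downstream one from 62 to 132 and from 94 to 137 (0.81, adjusted p = 0.0304). The latter no longer passed with the median set to 0 (0.62, adjusted p = 0.103), with no read minimum (0.193) or without the block (0.256). The Ezh1 region over the start went from 10 to 28 and from 15 to 42.7 (1.42, adjusted p = 0.000342). These counts are low. The acetyltransferases gained downstream of the start, where Crebbp went from 36 to 105 and from 65 to 144 (1.33, adjusted p = 0.000766 from limma) and Ep300 from 109 to 214 and from 77 to 200.0 (1.17, adjusted p = 0.00226). Both lost the call with no read minimum (adjusted p = 0.0560 and 0.0778) and without the block (0.0766 and 0.0728), as the upstream Suz12 region did without the block (0.0629). A short Crebbp region upstream held 0 and 2 reads without HOT and 15 and 13 with HOT, too few to test.

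The tested regions that did not pass lay further from the start than those that rose. All 12 regions that rose were centred between -1434 bp and 1626 bp from the start, and 0 of the 4 that did not pass were, a range read from these values and not tested. All 4 regions too low to test were also centred in it, and 2 of these were lower with HOT in both lines. The most upstream Ezh2 region, at -1206 bp, went from 14 to 12 scaled reads in KO1, and in KO2 from 35 to 11.8. The most downstream Ezh1 region, at 1080 bp, went from 17 to 11 and from 12 to 9.1, whereas its middle region, at 694 bp, went from 13 to 21 and from 10 to 18.2. The most downstream Eed region, centred at 2698 bp, went from 60 to 39 scaled reads in KO1, and in KO2 from 67 to 45.5 (-0.58, adjusted p = 0.116 from limma). That of Suz12, at 2396 bp, went from 37 to 36 and from 50 to 32.7 (-0.32, adjusted p = 0.453). That of Jarid2, at 3102 bp, went from 45 to 34 and from 34 to 59.1, so that the lines moved in opposite directions. The Ep300 region that overlaps its second H3K4me3 region, centred at -1695 bp, went from 52 to 73 and from 66 to 61.8 (0.19, adjusted p = 0.672). Of the 14 tested regions with at least 50% of their length inside H3K4me3, 12 rose, and of the 2 others tested, 0 did, a difference that was not tested.

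**Figure D3:**
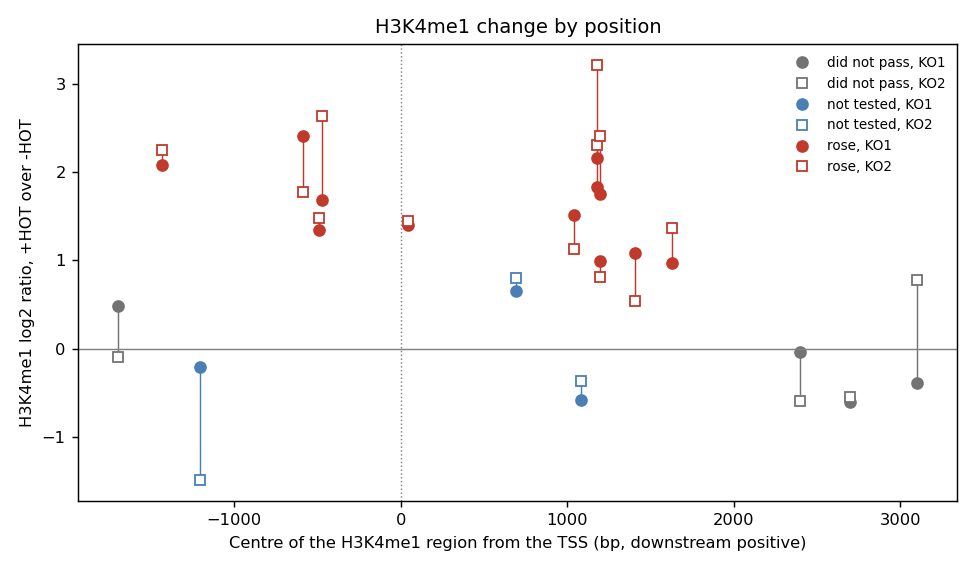
H3K4me1 log2 ratio of +HOT over -HOT (y axis) against the distance of the region's centre from the start (x axis, bp). Filled circles are KO1 and open squares KO2, joined per region, in red for those that rose, grey for those that did not pass and blue for those not tested, and the short Crebbp region with 0 and 2 reads is left out. The 12 red regions lie between -1434 bp and 1626 bp.

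Start sites of 6 of the 8 genes lay in a gap between called H3K4me1 regions or outside them, and only those of Ezh1 and Eed lay inside one. The share over all promoters was not computed. Summed over all its H3K4me1 regions, each of the 8 genes had more reads with HOT than without in both lines. The share of all genes with such a rise was not computed. Of all tested H3K4me1 regions at promoter H3K4me3 regions, 66.1% rose, and the scaled reads over all H3K4me1 regions were also higher with HOT in both lines. The sum of Jarid2 went from 82 to 203 scaled reads in KO1, and in KO2 from 56 to 272, that of Ezh1 from 40 to 60 and from 37 to 70. No H3K4me1 region overlapped the second H3K4me3 region of Jarid2, the one with the largest fall.

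**Figure D4:**
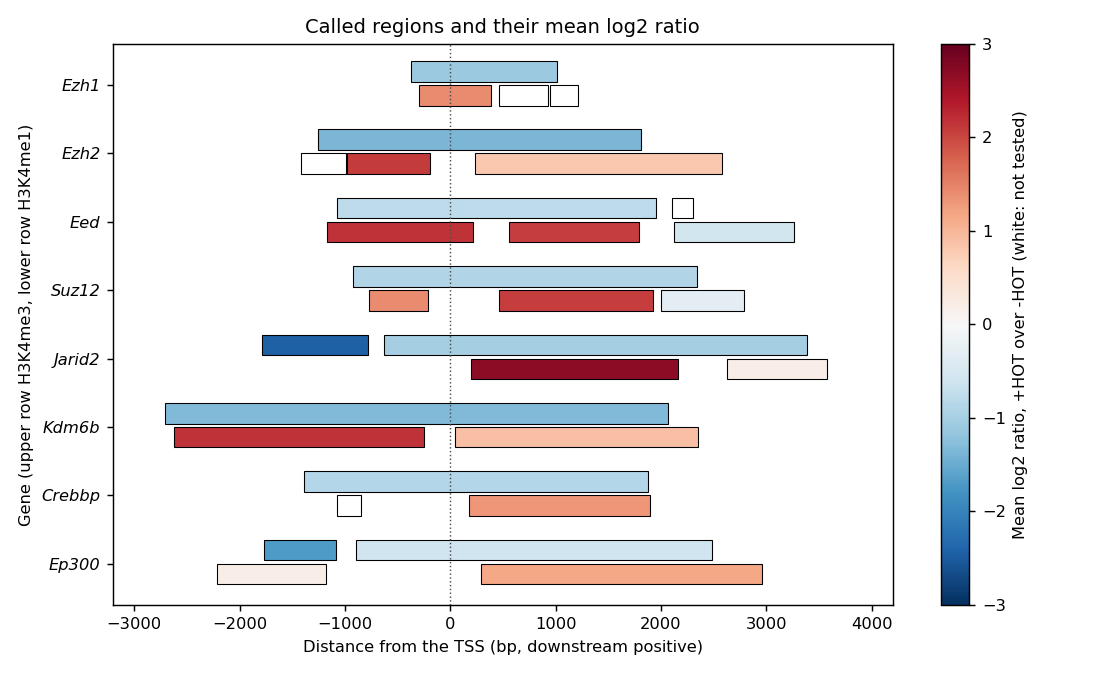
Called regions of each gene by distance from the start (x axis, bp), with H3K4me3 in the upper and H3K4me1 in the lower row. Colour gives the mean log2 ratio of +HOT over -HOT as deposited, and white regions were not tested. H3K4me1 was red next to the start of all 8 genes, under H3K4me3 in blue, and at Jarid2 and Ep300 the upstream H3K4me3 region is darker than the main one.

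The promoter sequences were read for 7 of the 8 genes, at 8 start sites, from 250 bases upstream of each RefSeq start. Kdm6b had no entry. A GC box (GGGCGG, either strand) stood in 5 of the 8, beside 32.7% of 32851 promoters of the same length. A CCAAT box stood in 3, beside 33.8%, a TATA box (TATAAA) in 1, the downstream Jarid2 start, beside 12.4%, and an E2F site (TTTCCCGC, TTTCGCGC, TTTGCCGC or TTTGGCGC) in that of Suz12, beside 1.86%. CpG numbered 12 (Eed) to 44 (Crebbp), above the median of 6 in each. The 32851 promoters were not limited to those with H3K4me3, whereas all 8 start sites lie in H3K4me3 regions. A background of promoters with H3K4me3 was not computed. With 8 promoters these are descriptions, and a match does not make a site.

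For each of the 8 genes, the gene whose main region was nearest in H3K4me3 over the 4 libraries was found by Euclidean distance on log2(value + 1). These were Smox for Ezh1 (distance 0.0778), Mir193a for Ezh2, Kif15 for Eed, Wdr37 for Suz12, Bzw2 for Jarid2, Cmtm7 for Kdm6b, Zxdc for Crebbp and Atxn2l for Ep300 (distance 0.0928). Such neighbours were common, with 284 genes (Ep300) to 1289 genes (Suz12) within a distance of 0.5.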

How the data were processed

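According to the paper and the submitters' processing notes, the authors trimmed reads with Trim_Galore, aligned them with BWA (mm9), dropped duplicates and blacklisted regions, called regions with Macs2 and annotated them with Homer, a promoter being within 3000 bp of a start. The signal values deposited are counts of reads in a region, scaled by the authors to the library of lowest coverage of a line. Multiplied by 1.333 (KO1) or 1.01 (KO2) for H3K4me3 -HOT and 1.1 for H3K4me1 +HOT of KO2, 100% were whole within 0.001. The series has 20 libraries, of which the 8 KO libraries were analysed, and the 8 WT and 4 input libraries were not analysed here. The authors' log2 fold change columns were not used.

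A region held a median of 37 to 507 scaled reads for H3K4me3 and of 32 to 39 for H3K4me1, depending on the library. The test was limma 3.58.1 (R 4.3.3) with a block for the line, on the log2 of the value plus a pseudocount of 1. It covered regions that exceeded 20 reads with or without HOT in each line, and p-values were adjusted over all of them (Benjamini-Hochberg, threshold 0.05). Libraries of the same line deviated together (correlation 0.587 for H3K4me3 and 0.58 for H3K4me1), and the pairing comes from the line. limma gave all H3K4me3 regions 1 standard error (0.391), so the spread between lines at a single region does not enter its p-value. Intervals of differences take regions as independent. Their error includes the difference in median shift between the lines, which regions share, so they may be too wide. The test was also run on simulated data in which few regions changed and the mark as a whole did not shift. These differ from the present H3K4me3 data, so that run does not check the test under such a shift. Distances of H3K4me1 regions are from the start annotated for the main H3K4me3 region. Promoter sequences are from RefSeq (GRCm38.p6) and were placed on NCBIM37 by a single exact match. edgeR 4.0.16 was run on the recovered reads. Tables and figures were made with Python 3.11.15 (pandas 2.3.3, matplotlib 3.10.9). Genes named are the 8 genes, the lowest and highest of each companion list (all where 3 or fewer) and the nearest gene of each. The genes, lists and tests were chosen with earlier results of these data known.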

Additional observations from a re-analysis of the deposited data

Results flagged for a closer look

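At 2 H3K4me1 regions the lines moved in opposite directions, and the difference was not tested, since each line has 1 library per condition. The Jarid2 region at chr13:44829267-44830218 had a log2 ratio of -0.39 in KO1 and 0.78 in KO2 (KO2 minus KO1 1.17). The Ep300 region at chr15:81414430-81415468 had 0.48 in KO1 and -0.09 in KO2 (KO2 minus KO1 -0.57). Both had 34 to 73 scaled reads per library.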

How the results depend on the processing

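With no replicate block, so without the pairing by line, 0 of 10 H3K4me3 regions, 0 of 8 main regions and 0 of 18 companion genes fell (0 of the 10 also at an unadjusted p under 0.05), as did 0 of all 16129 regions (679 at an unadjusted p under 0.05, 15238 by edgeR with the block), and 7 of 16 H3K4me1 regions rose. With no read minimum, 5 regions, 2 main regions and 5 companion genes fell. With each line scaled to a median log2 ratio of 0, 1 region (the second of Jarid2), 0 main regions and 3 companion genes fell, and over all H3K4me3 regions 3744 fell and 1519 rose, beside 13954 and 12. Values then reversed at Ezh1 (0.22), Eed (0.55), Suz12 (0.44), Jarid2 (0.32), Kdm6b (0.0092), Crebbp (0.45), Ep300 (0.75), Aebp2 (0.87), Cited2 (0.65), Hdac1 (0.48), Hdac2 (0.74), Hdac3 (0.0503) and Kdm6a (0.61), by the construction of the scaling. With more than 50 reads required, 1 H3K4me1 region fell, the downstream one of Eed. A log2 ratio beyond 1 left 4 lost H3K4me3 regions of 9. By ratio in 1 line alone, 9 (without replicate 2) to 11 (without replicate 1) H3K4me3 regions were lost and 12 to 13 H3K4me1 regions gained, beside 9 and 11 in both. For all H3K4me1 regions, 11638 rose and 2026 fell, against 5010 and 103 without the block, 4977 and 304 with no read minimum, 7544 and 2713 with the median set to 0, 762 fell with more than 50 reads, 1107 with a trend and 1193 with edgeR. Except where named, the counts at the 8 genes stayed within 1.5 times of those given with a pseudocount of 5, more than 50 reads, a trend, edgeR, the region nearest the start and at least 50% of the length inside. Over single regions, genes and both differences between a second and a main region, 250 values under all alternatives counted as unchanged. Of the others, 37 lost the call, 14 gained it and 13 reversed, the last all listed above. For the fits, unchanged means the same direction and call. A value of 1 line alone only had to stay within 1 SD of the mean, which 2 lines always do. Such values therefore do not speak for stability. Among them are the Jarid2 and Ep300 H3K4me1 regions whose lines moved in opposite directions. The cause of the other changes was not tested. With 1 pair of libraries per line, depth and line limit each value.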
